A study of Homo sapiens with 6 samples.

Results

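YAP1 and its paralog TAZ, the product of WWTR1, are transcriptional coactivators without a DNA-binding domain of their own. They are the output of the Hippo pathway, in which the kinases LATS1 and LATS2 phosphorylate them and so keep them in the cytoplasm, where angiomotin proteins such as AMOTL1 and AMOTL2 also bind them. In the nucleus they bind the TEAD transcription factors and switch on genes such as CCN1, CCN2 and ANKRD1, of which CCN1 and CCN2 encode secreted matricellular proteins, and also AMOTL2 and LATS2, which close a negative feedback. In glioblastoma (GBM), TAZ is known as a driver of the mesenchymal state.

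The 10 genes YAP1, WWTR1, TEAD1, TEAD4, CCN1, CCN2, ANKRD1, AMOTL1, AMOTL2 and LATS2 were taken by name. A gene was measured where a transcript cluster (the set of probes that the array assigns to 1 transcript unit) carried its symbol alone, and where there were several, the brightest by its mean over the 6 arrays stood for the gene. This gave 9 of the 10 among the 33616 genes tested. The cluster of AMOTL2 carries 3 symbols, so no value is given for AMOTL2. The samples were 3 arrays of the control (ATRX NC), in which a non-targeting sgRNA was used, and 3 arrays of ATRX KO cells, in which the sgRNAs targeted ATRX. Both came from GBM cells that received CAS9 by virus, were selected with puromycin for 7 days and were then exposed to the sgRNA virus for 24 hours. The design text and the paper call these cells LN229R, a derivative of the LN229 line that resists TMZ, whereas the sample labels name LN229. The sources do not say whether the cells were a single clone or whether each array had a culture of its own, so the p-values reflect the spread between these arrays alone, which may be technical.

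As a check of the labels, ATRX itself was at log2 intensities of 10.49, 10.22 and 10.14 in ATRX NC cells and of 8.47, 8.67 and 8.75 in ATRX KO cells. Over all genes tested, 9.51% passed the test (adjusted p under 0.05 from limma), 5.79% as higher and 3.72% as lower in ATRX KO cells. In a fit over the 17579 protein-coding genes alone, 2064 were higher and 1418 lower, a larger share. The shares over all genes are therefore a low base for lists of protein-coding genes. Of the 9 measured genes of the YAP and TEAD group, WWTR1 fell and the other 8 did not pass. Arrays within a group correlated at r of 0.990 to 0.992 across genes, and between groups at 0.980 to 0.981. Among the glioma and glial markers, VIM and CD44 were bright in both groups (group means of 17.1 for VIM and of 13.97 and 14.23 for CD44). S100B, SOX10, PDGFRA, NES, SOX2 and SLC1A3 also lay above the median gene level of 6.10 in every array (group means of 10.47 or more). GFAP, OLIG2, AQP4 and MBP lay below it in every array, with GFAP at 5.67 or less and OLIG2 at 5.18 or less.

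TEAD factors bind the 6-base motif CATTCC, which reads GGAATG on the other strand. To show where the best known targets carry it, the 250 bases before the annotated start were searched on both strands in RefSeq promoters of GRCh38.p14. An entry matched for 7 of the 10 genes, and CCN1, TEAD1 and TEAD4 were not among them. At least 1 match was found in 10.1% of the windows of 15843 protein-coding genes, at least 2 in 0.751% and at least 3 in 0.0884%. The CCN2 window (chr6:131951373-131951622, minus strand) held 3 matches, the ANKRD1 window (chr10:90921088-90921337, minus strand) held 2 and the YAP1 window (chr11:102110197-102110446, plus strand) held 1. The 3 windows with a match are shown 5′ to 3′ on the strand of the gene, with the motif in capitals.
CCN2: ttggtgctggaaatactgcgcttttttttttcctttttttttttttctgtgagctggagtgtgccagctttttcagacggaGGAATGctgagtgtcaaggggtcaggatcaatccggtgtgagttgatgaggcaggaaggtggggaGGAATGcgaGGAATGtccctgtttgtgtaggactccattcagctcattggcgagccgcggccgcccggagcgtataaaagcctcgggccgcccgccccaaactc
ANKRD1: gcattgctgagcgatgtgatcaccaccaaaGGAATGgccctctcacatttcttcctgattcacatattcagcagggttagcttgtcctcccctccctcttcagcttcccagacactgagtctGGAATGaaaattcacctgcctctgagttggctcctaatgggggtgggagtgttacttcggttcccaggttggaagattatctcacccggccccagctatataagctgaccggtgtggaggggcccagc
YAP1: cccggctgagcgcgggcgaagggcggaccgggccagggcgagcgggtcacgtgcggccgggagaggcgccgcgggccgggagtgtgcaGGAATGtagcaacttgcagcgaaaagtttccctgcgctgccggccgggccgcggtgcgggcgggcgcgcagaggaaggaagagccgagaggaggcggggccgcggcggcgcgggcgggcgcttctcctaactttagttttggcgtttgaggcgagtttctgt
All 6 matches read GGAATG on the strand of the gene. In CCN2 a pair of them lies close together, with first bases 104 and 95 bases before the start, and the other begins 169 bases before it. The windows of WWTR1, AMOTL1, AMOTL2 and LATS2 held none, and those of WWTR1 and AMOTL1 lie at a start inside the annotated gene rather than at its outer end. A match is a stretch of letters and not a measured binding site.

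**Figure D1:**
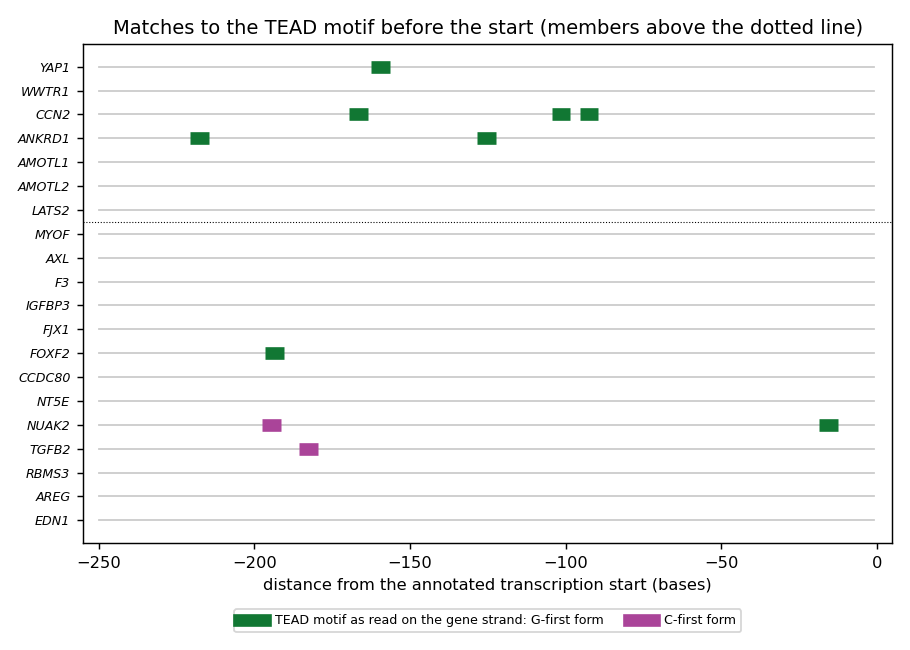
Positions of matches to the TEAD motif, on a horizontal axis of distance in bases from the annotated start, for each gene (rows) of the YAP and TEAD group and of the other YAP and TAZ target genes with a RefSeq promoter. Each block is 1 match, coloured by the strand form, and CCN2 has the most with 3.

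Of the coactivators, WWTR1 fell in ATRX KO cells. Its log2 intensities were 13.95, 14.04 and 13.74 in ATRX NC cells and 12.68, 12.51 and 12.94 in ATRX KO cells. All 3 ATRX KO arrays lay below all 3 ATRX NC arrays, as for 11.2% of all genes. The gap was wider than the spread within either group. The means were 13.91 ± 0.16 (SD, n = 3) and 12.71 ± 0.22 (SD, n = 3), a log2 fold change of -1.20 (standard error, SE, 0.17, 95% interval -1.60 to -0.81, adjusted p = 0.00387 from limma), which left 43.5% of the level of ATRX NC cells. In RNA from whole cultures, fewer cells that express a gene and less RNA per cell cannot be told apart. The fall was past the test under each of the 16 other limma settings tried, from -1.10 without ATRX KO replicate 2 to -1.32 without ATRX KO replicate 3. WWTR1 spans 207.6 kb on chromosome 3 (chr3:149517235-149724788, minus strand). Protein-coding genes above the median level were split into 5 equal groups by span. The longest group, to which WWTR1 belongs, had a median log2 fold change of -0.068 against 0.22 in the shortest. With a trend on gene span removed, WWTR1 was at -1.15 (adjusted p = 0.00154).

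YAP1 did not pass. It was at log2 intensities of 9.40, 8.72 and 9.28 in ATRX NC cells and of 9.35, 9.42 and 9.26 in ATRX KO cells. ATRX NC replicate 2 was the lowest of the 6 arrays, and the other 5 lay within 9.26 and 9.42. The log2 fold change was 0.21 (SE 0.20, 95% interval -0.25 to 0.67, adjusted p = 0.594 from limma), and without ATRX NC replicate 2 it was at -0.00017. The interval of WWTR1 and that of YAP1 do not overlap. Within each array the log2 level of YAP1 minus that of WWTR1 was -5.32 to -4.46 in ATRX NC cells and -3.67 to -3.09 in ATRX KO cells, so the balance between the paralogs moved by 1.41 (exact two-sided permutation test over the 6 arrays, p = 0.10, the smallest p that 3 against 3 arrays allow, and 0.30 after Benjamini-Hochberg adjustment over 3 pairs). These differences describe the change between groups, since the levels of different probes cannot be set against each other.

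Transcripts next to these genes were read after their values were seen. WWTR1-IT1, annotated as an intronic transcript of WWTR1, was at log2 intensities of 13.34, 12.99 and 13.58 in ATRX NC cells and of 13.00, 13.11 and 13.05 in ATRX KO cells, and its groups overlapped. Its log2 fold change was -0.24 (95% interval -0.66 to 0.17, adjusted p = 0.464 from limma). The antisense gene WWTR1-AS1 was dim, at 5.19 to 5.81, with a log2 fold change of 0.012 (95% interval -0.47 to 0.49). The YAP1 pseudogenes YAP1P1 and YAP1P2, which have clusters of their own, were at 0.023 and -0.13 and did not pass. Whether probes of YAP1 also read these copies was not analysed here.

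**Figure D2:**
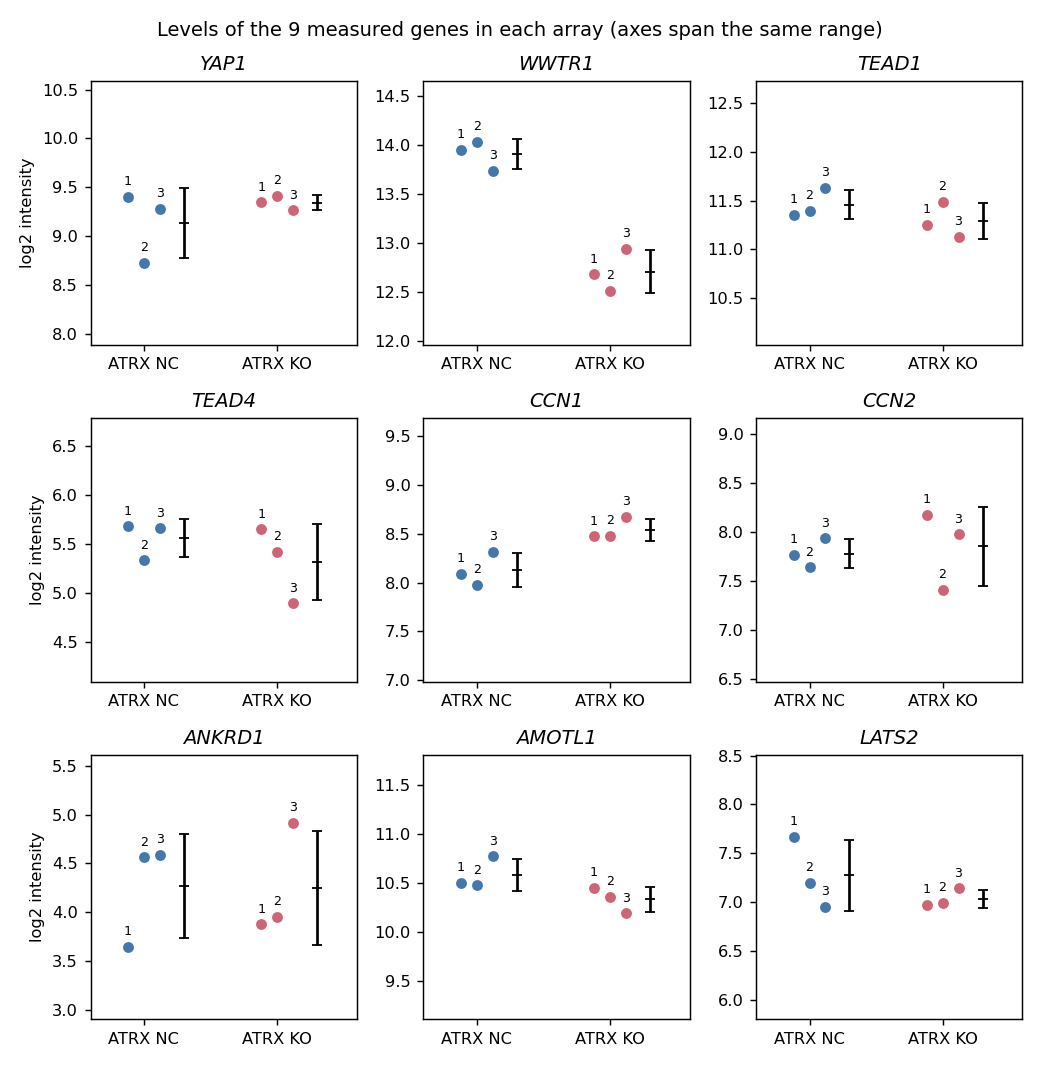
Log2 intensity (vertical axis) of the 9 measured genes in each of the 3 ATRX NC and 3 ATRX KO arrays, numbered by replicate, with the mean and SD of each group beside the points. The axes differ in position but span the same range, and WWTR1 shows the widest gap between groups, with ATRX KO arrays at 12.94 or less and ATRX NC arrays at 13.74 or more.

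The TEAD genes of the group did not pass. TEAD1 was at log2 intensities of 11.35, 11.39 and 11.63 in ATRX NC cells and of 11.25, 11.49 and 11.13 in ATRX KO cells, which overlapped. Its log2 fold change was -0.17 (95% interval -0.55 to 0.21, adjusted p = 0.591 from limma). TEAD4 was dim, below the median gene level in every array, at 5.68, 5.33 and 5.66 against 5.65, 5.42 and 4.89. Its log2 fold change was -0.24 (95% interval -0.74 to 0.27, adjusted p = 0.571), and ATRX KO replicate 3 was the lowest array. The log2 difference between TEAD1 and TEAD4 moved by 0.068 (exact two-sided permutation test, p = 0.70). It turned to -0.045 when ATRX NC replicate 1 was left out and to -0.065 when ATRX KO replicate 3 was.

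None of the 6 other genes of the TEAD family and of the vestigial-like cofactors, which compete with YAP1 and TAZ for TEAD factors or act as coactivators of their own, passed the test, although the unadjusted limma p was under 0.05 for 2 of them (and for 24.3% of all genes). The nearest was TEAD2, at 9.23, 9.07 and 8.92 in ATRX NC cells and 9.69, 9.50 and 9.94 in ATRX KO cells. All ATRX KO arrays lay above all ATRX NC arrays, as for 19.0% of all genes, and TEAD2 was at a log2 fold change of 0.64 (SE 0.17, limma adjusted p = 0.0561). It passed over protein-coding genes alone (adjusted p = 0.0242), with the gene span trend removed (0.0410), over the brighter genes (0.0146) and with a variance trend (0.0141). VGLL3 and VGLL4, a cofactor that represses TEAD targets, were at -0.47 and -0.43 (adjusted p = 0.140 and 0.212), and VGLL2 was at 0.40 (0.231).

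**Figure D3:**
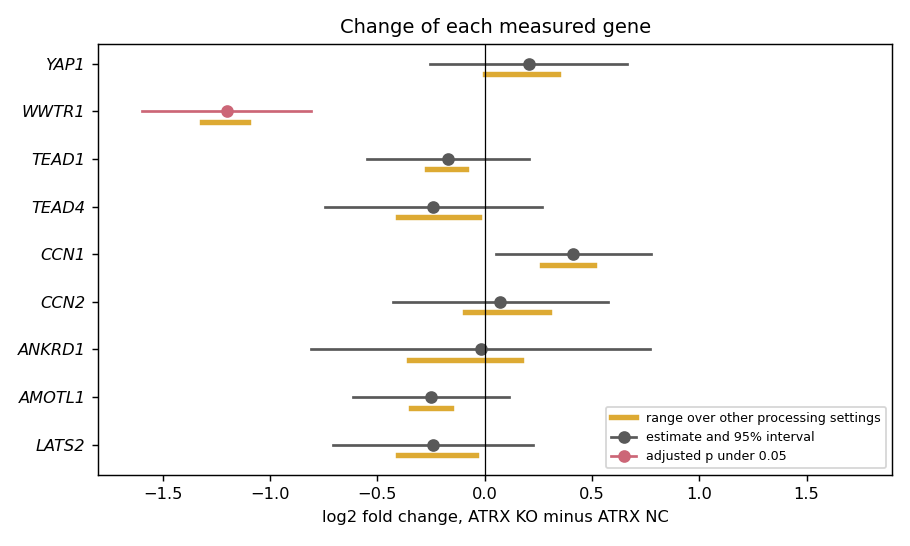
Log2 fold change (horizontal axis, ATRX KO minus ATRX NC) of the 9 measured genes with its 95% interval, and below each the range of the estimate over the other processing settings. The interval of WWTR1 runs from -1.60 to -0.81, and those of all others but CCN1 include 0.

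Of the target genes in the group, none of CCN1, CCN2 and ANKRD1 passed. CCN1, which encodes the matricellular protein CYR61, was at log2 intensities of 8.09, 7.97 and 8.32 in ATRX NC cells and of 8.47, 8.48 and 8.67 in ATRX KO cells. All ATRX KO arrays lay above all ATRX NC arrays, as they did for 19.0% of all genes. The log2 fold change was 0.41 (SE 0.16, 95% interval 0.05 to 0.77, unadjusted p = 0.0299 and adjusted p = 0.152 from limma). CCN1 spans 3.2 kb on chromosome 1 and is in the shortest of those 5 groups, and with the gene span trend removed it was at 0.27 (adjusted p = 0.234).

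CCN2, which encodes connective tissue growth factor and has 3 TEAD motifs in the window shown above, was at 7.77, 7.64 and 7.93 in ATRX NC cells and at 8.18, 7.40 and 7.98 in ATRX KO cells. ATRX KO replicates 1 and 2 were the highest and the lowest of the 6 arrays, so the groups overlapped throughout. The log2 fold change was 0.073 (95% interval -0.43 to 0.57, adjusted p = 0.881 from limma), and its sign turned under each other scaling (-0.035 to -0.011). The log2 difference between CCN1 and CCN2 moved by 0.34 (exact two-sided permutation test, p = 0.40). Without ATRX KO replicate 2 it moved by 0.15 and without ATRX KO replicate 1 by 0.54.

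ANKRD1, a cardiac and muscle ankyrin repeat protein gene with 2 TEAD motifs in its window, was near the dim end of the scale, at 3.65, 4.56 and 4.59 in ATRX NC cells and at 3.87, 3.95 and 4.92 in ATRX KO cells. The groups overlapped, and the spread within a group (SD of 0.54 and 0.58) was the widest of the 9 genes. The log2 fold change was -0.018 (95% interval -0.81 to 0.77, adjusted p = 0.982 from limma). No background level comes with the arrays, so it is not known whether ANKRD1 was above background, and the same holds for TEAD4.

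Among the other genes of the CCN family, CCN3 and CCN4 rose. CCN3, a paralog with growth-restraining activity in several cell types, was at 5.88, 6.12 and 5.64 in ATRX NC cells and at 7.71, 7.61 and 7.69 in ATRX KO cells, so its log2 level rose by 1.79 (SE 0.17, limma adjusted p = 0.000413). CCN4, known as a WNT-induced gene, was at 5.80, 5.39 and 5.77 and at 6.45, 6.56 and 6.57, and rose by 0.87 (SE 0.16, adjusted p = 0.0139), a call lost without ATRX KO replicate 3 (adjusted p = 0.0560). CCN5 and CCN6 did not pass (0.41 and 0.051). Thus 2 of the 4 other CCN genes rose and none fell, against 5.79% of all genes that rose. In ATRX NC cells CCN4 lay below the median gene level of 6.10 in every array and CCN3 lay near it. Whether CCN3 and CCN4 were above background there is not known.

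Other YAP and TAZ target genes moved in both directions. Of 20 named, 16 were measured, of which 6 rose, 2 fell and 8 did not pass, with a median log2 fold change of 0.26. Over all genes tested, 5.79% rose and 3.72% fell, and the median was 0.074. IGFBP3, which encodes a binding protein of insulin-like growth factors, was at 6.97, 6.54 and 6.60 in ATRX NC cells and at 10.33, 10.53 and 10.68 in ATRX KO cells, and rose by 3.81 (SE 0.18, adjusted p = 1.25e-05 from limma). NT5E, which encodes the ecto-nucleotidase CD73, was at 14.11, 14.01 and 13.93 and at 15.82, 15.76 and 15.70, and rose by 1.74 (SE 0.14, adjusted p = 0.000208). The direction was opposite for RBMS3 and DOCK5.

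RBMS3, which encodes an RNA-binding protein, was at 13.41, 13.48 and 13.30 in ATRX NC cells and at 11.19, 11.03 and 11.25 in ATRX KO cells, and fell by 2.24 (SE 0.15, adjusted p = 7.42e-05 from limma). DOCK5, which encodes an activator of the GTPase RAC, was at 14.25, 14.33 and 14.45 and at 13.11, 12.82 and 13.20, and fell by 1.30 (SE 0.16, adjusted p = 0.00179). For both genes, all ATRX KO arrays lay below all ATRX NC arrays, as for 11.2% of all genes. The other rises were those of MYOF at 1.14, GADD45A at 0.96, F3 at 0.91 and CRIM1 at 0.86. That of F3, the tissue factor gene, was lost without ATRX NC replicate 1 or 2 and without ATRX KO replicate 2 or 3 (at most 0.0657 in adjusted p), whereas that of GADD45A without ATRX KO replicate 3 (0.0573). AXL, which encodes a receptor kinase, did not pass (-0.47, adjusted p = 0.129), though it did under 3 other settings, and BIRC5, ASAP1, FOXF2, NUAK2, EDN1, FJX1 and ARHGEF17 lay between -0.17 and 0.41. A RefSeq promoter was matched for 13 of the 20 genes. The TEAD motif was in the windows of FOXF2, NUAK2 and TGFB2 alone (23.1% of the 13, against 10.1% of protein-coding genes). Neither of the measured genes among them, FOXF2 at -0.17 and NUAK2 at 0.26, passed.

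**Figure D4:**
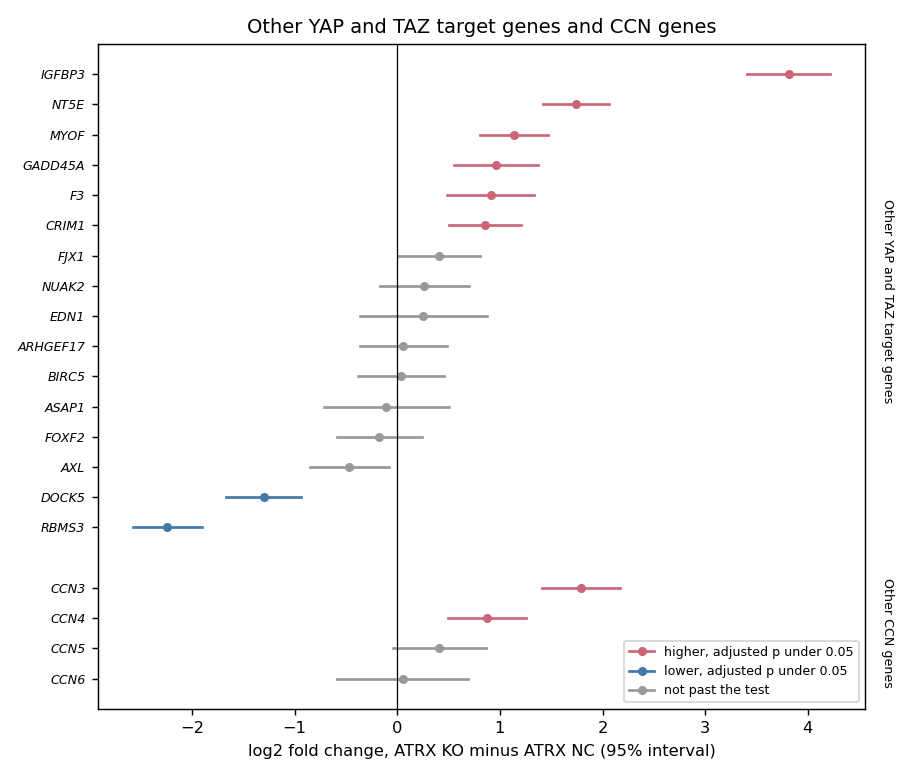
Log2 fold change (horizontal axis, ATRX KO minus ATRX NC) with its 95% interval for the 16 measured other YAP and TAZ target genes and the 4 other CCN genes, coloured by the call. IGFBP3 lies farthest to the right at 3.81 and RBMS3 farthest to the left at -2.24.

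The upstream regulators of the group did not pass. LATS2, the kinase that is also a feedback target, was at 7.67, 7.20 and 6.95 in ATRX NC cells and at 6.97, 6.99 and 7.14 in ATRX KO cells. The ATRX KO arrays fell within the range of the ATRX NC arrays, and the log2 fold change was -0.24 (95% interval -0.70 to 0.22, adjusted p = 0.529 from limma). AMOTL1, an angiomotin-like junction protein, was at 10.50, 10.48 and 10.77 and at 10.45, 10.36 and 10.19, so that all ATRX KO arrays lay just below all ATRX NC arrays, as for 11.2% of all genes. Its log2 fold change was -0.25 (95% interval -0.61 to 0.11, adjusted p = 0.386). The second cluster of AMOTL1 was dimmer, at 7.13, 7.92 and 7.62 against 7.59, 7.24 and 7.14, and its groups overlapped.

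Of 22 measured genes of the Hippo kinases, adaptors and upstream cadherins, 3 rose, 4 fell and 15 did not pass, with a median of -0.12. Over all genes tested, 5.79% rose and 3.72% fell, with a median of 0.074. The core kinases did not pass, with STK3 at -0.29 (adjusted p = 0.267 from limma), STK4 at -0.16 (0.555) and LATS1 at 0.13 (0.698), and neither did the scaffold genes SAV1 (-0.46, 0.140) and NF2 (-0.16, 0.644). Of the genes that moved, LIMD1, which encodes a LIM protein that binds LATS kinases, was at 8.31, 8.76 and 8.33 in ATRX NC cells and at 7.04, 6.79 and 7.06 in ATRX KO cells, and fell by 1.50 (SE 0.18, adjusted p = 0.00150). Its paralog AJUBA, with the same kind of activity, was at 6.78, 6.24 and 6.84 and at 7.55, 7.58 and 8.07, and rose by 1.12 (SE 0.22, adjusted p = 0.0176), a call lost when ATRX NC replicate 2 (0.0505) or ATRX KO replicate 3 (0.0614) was left out.

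The giant cadherins DCHS1 and FAT4, which bind each other across cell contacts, moved in opposite directions. DCHS1 was at 7.45, 7.29 and 7.93 in ATRX NC cells and at 5.87, 6.17 and 5.74 in ATRX KO cells, and fell by 1.63 (SE 0.21, adjusted p = 0.00220 from limma). FAT4 was at 7.79, 8.14 and 7.90 and at 8.73, 9.13 and 9.16, and rose by 1.06 (SE 0.18, adjusted p = 0.00896). FRMD6, which encodes a FERM domain protein upstream of the kinases, was at 10.17, 9.69 and 10.05 and at 8.94, 8.72 and 9.07, and fell by 1.06 (SE 0.18, adjusted p = 0.00919). The groups of these genes did not overlap. Over all genes, all ATRX KO arrays lay below all ATRX NC arrays for 11.2% and above them for 19.0%. WWC3 at 0.84 and MOB1B at -0.68 passed as well (limma adjusted p of 0.0167 and 0.0349), but WWC3 was lost without any of 4 arrays and MOB1B without any of 5 (highest adjusted p = 0.0627 and 0.106). Of 11 measured genes of the STRIPAK phosphatase complex, which removes the activating phosphate from the STK3 and STK4 kinases, none passed in the main limma fit. The unadjusted limma p was under 0.05 for 3 of them, and for 24.3% of all genes. STRN3, the nearest, was at -0.53 (adjusted p = 0.0656) and passed after each other scaling, at -0.63 to -0.61. It also passed over protein-coding genes alone (0.0263), with the gene span trend removed (0.0276), over the brighter genes (0.0154) and with a variance trend (0.0155). CTTNBP2NL passed as higher over the brighter genes (0.0436) and with a variance trend (0.0372). SIKE1 passed as lower with the gene span trend removed (0.0292) and with a variance trend (0.0245).

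**Figure D5:**
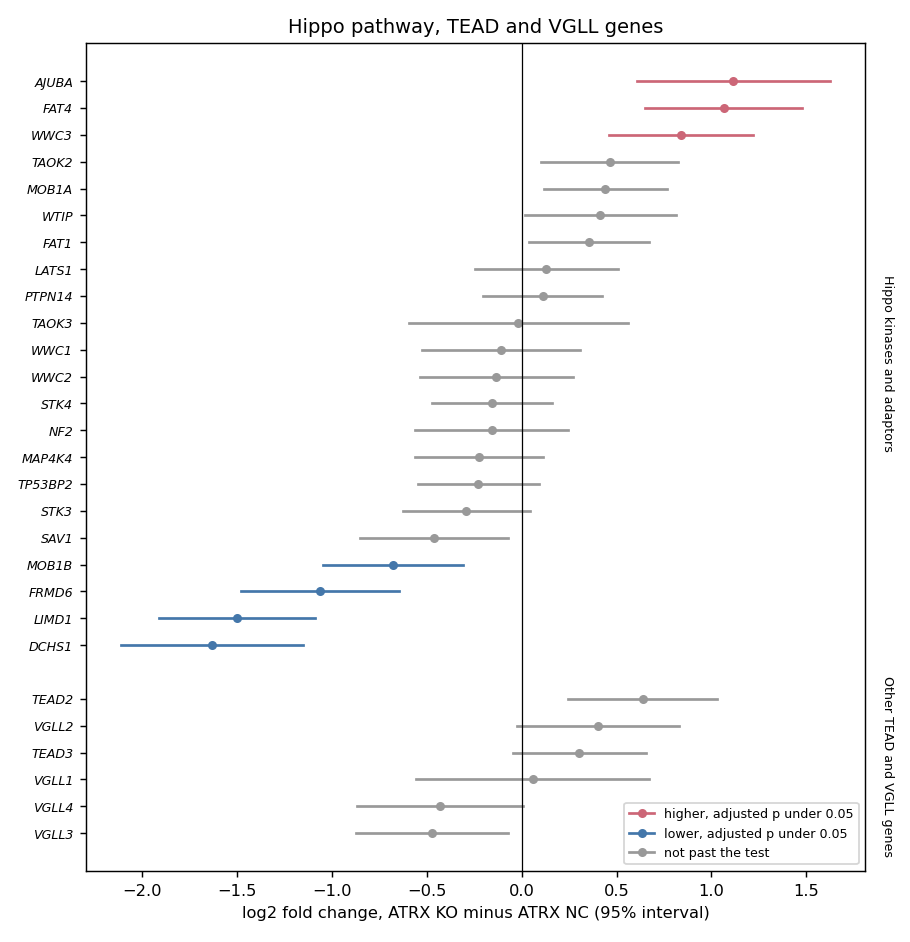
Log2 fold change (horizontal axis, ATRX KO minus ATRX NC) with its 95% interval for 22 genes of the Hippo pathway and 6 genes of the TEAD and VGLL families, coloured by the call. The calls lie on both sides of 0, from DCHS1 at -1.63 to AJUBA at 1.12.

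Some markers of other cell types moved between the same arrays, while over all genes tested 5.79% rose and 3.72% fell. Of 9 fibroblast markers, 5 rose (FAP, LUM, PDGFRB, DCN and TAGLN) and none fell, and the summed linear intensity of the 9 went from 5118 to 5343 in ATRX NC cells to 42080 to 58194 in ATRX KO cells, while COL1A1, COL1A2, THY1 and ACTA2 did not pass (-0.31, 0.68, 0.48 and -0.094). Without LUM, the brightest of them, that sum was 1991 to 2049 against 10656 to 13718. Of 12 immune and endothelial markers, CD68 and PECAM1 rose (PECAM1 not when ATRX KO replicate 1 or 3 was left out, with limma adjusted p up to 0.0634). The other 10 did not pass. PTPRC, CD14, ITGAM, VWF, KDR and MS4A1 lay between -0.29 and 0.16, and CD3E, NKG7, CDH5 and CSF1R between 0.50 and 0.61. CD3E passed over protein-coding genes alone (0.0204), over the brighter genes (0.0119) and with a variance trend (0.0496). The sum of the 12 was 742.3 to 804.6 against 1651 to 2149. Without CD68 that sum was 658.3 to 687.2 against 785.4 to 985.9. Of 12 glioma and glial markers, S100B, SOX10, PDGFRA and NES fell and the other 8 did not pass. SOX2 and CD44 were at 0.44 and 0.26 (adjusted p = 0.140 and 0.330 from limma). Their ATRX KO arrays all lay above their ATRX NC arrays, as for 19.0% of all genes. SOX2 passed as higher over the brighter genes (0.0469) and with a variance trend (0.0418). The sum of the 12 was 180418 to 206617 against 166864 to 175814. VIM, which did not pass (0.028), made up 68.0% to 81.6% of that sum, and without it the sum was 57159 to 61016 in ATRX NC cells and 31486 to 35306 in ATRX KO cells. Of 6 epithelial markers KRT19 alone rose (0.74), a call lost after each other scaling (adjusted p of 0.0515 to 0.0554 from limma) and when any array but ATRX KO replicate 1 was left out (0.0673 to 0.0961), and the sum of the 6 was 2875 to 2967 against 2454 to 3059. The part of these shifts in the results for WWTR1, IGFBP3, NT5E and the other genes above was not tested.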

How the data were processed

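mRNA of 3 ATRX NC and 3 ATRX KO samples was measured on 1-colour arrays. The values deposited by the authors are log2 intensities. Their methods state quantile normalization in limma, while how background was corrected and probes were summarised was not stated there. Agilent arrays are named in the methods, whereas cluster identifiers and labelling kit belong to Affymetrix. With no detection call, the number of arrays limits the precision.

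Of 135748 clusters, 36176 had 1 symbol, 1119 several and 98453 none. Of those with 1 symbol, 25516 were matched to RefSeq (GRCh38.p14) through Entrez numbers and took its symbol. The cluster with the highest mean represented each of 33616 genes. Groups were compared with limma 3.58.1 (lmFit, eBayes; R 4.3.3; statmod 1.5.0 for robust fits), with Benjamini-Hochberg adjustment over all genes at 0.05, after the code was tested on simulated data. Paralogs were compared with an exact permutation test, and AMOTL1 with AMOTL2 could not be. Named genes were the members, up to 4 of each list with the smallest p, and any whose role was needed to read a member. The remaining genes named from the lists were named after their values were seen. For the 2 members with the largest change, the 3 nearest protein-coding genes by pattern were also named. Members and lists were chosen with earlier results of these data known.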

Additional observations from a re-analysis of the deposited data

How the results depend on the processing

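WWTR1 was the only gene of the group that passed in every setting, and none rose except under the methods' t-test without adjustment, where CCN1 passed (1 gene higher), a test that 22.1% of all genes passed. Signs turned, with no call at stake, for CCN2 after quantile normalization again (-0.0346), median centring (-0.0211), cyclic loess (-0.0106), removal of the gene span trend (-0.0722) and without ATRX KO replicate 1 (-0.0892), for YAP1 without ATRX NC replicate 2 (-0.00017), and for ANKRD1 without ATRX NC replicate 2 or 3 or ATRX KO replicate 1 or 2 (0.13, 0.14, 0.17 and 0.13). Leaving out 1 array gave -0.00017 to 0.34 for YAP1, -0.0892 to 0.30 for CCN2 and -0.35 to 0.17 for ANKRD1. TEAD4 went from -0.24 to -0.025 without ATRX KO replicate 3 and to -0.40 without ATRX KO replicate 1, LATS2 from -0.24 to -0.041 without ATRX NC replicate 1 and to -0.40 without ATRX NC replicate 3, and TEAD1 from -0.17 to -0.085 without ATRX NC replicate 3, to -0.090 without ATRX KO replicate 3 and to -0.27 without ATRX KO replicate 2. AMOTL1 was at -0.16 without ATRX NC replicate 3, and none of these passed. The cause was not tested.

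Over all genes, 1947 rose and 1251 fell. The counts were 3051 and 1909 for genes above the median level, 3207 and 1934 with a variance trend and robust fit, 4650 and 2775 by the methods' t-test unadjusted, and 1224 and 771 after Benjamini-Hochberg. With all clusters tested they were 992 and 1148, and the calls of CCN4, F3, GADD45A, CRIM1, AJUBA, WWC3, MOB1B, ACTG1, MRTFA, TGFB1I1, SMURF2, PECAM1 and KRT19 were lost (highest adjusted p = 0.149). Leaving out 1 array gave 1037 to 1354 rises and 739 to 836 falls. The share of rises was 60.9% as deposited and 47.7% to 49.2% after the other scalings.

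Replicate numbers did not pair the arrays, since deviations of same-numbered arrays correlated at -0.023, -0.039 and -0.0043. With the replicate block, 1255 genes rose and 804 fell, WWTR1 was past the test (adjusted p = 0.0200), and WWC3 (0.0518), MOB1B (0.0805), TGFB1I1 (0.0600) and KRT19 (0.0651) were not. For the paralog differences, leaving out 1 array gave 1.14 to 1.57 for YAP1 and WWTR1, -0.065 to 0.25 for TEAD1 and TEAD4 and 0.15 to 0.54 for CCN1 and CCN2.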

Other observations

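Programs that share targets with YAP1 and TAZ were read beside them. Of 15 measured SRF and MRTF genes, which form the actin-linked program, 4 rose and 1 fell, with a median log2 fold change of 0.38. Over all genes tested, 5.79% rose and 3.72% fell, and the median was 0.074. TPM2, a tropomyosin gene, was at log2 intensities of 9.15, 9.29 and 8.97 in ATRX NC cells and of 11.02, 10.93 and 10.87 in ATRX KO cells, and rose by 1.80 (standard error 0.15, adjusted p = 0.000248 from limma). FHL2, a LIM protein gene, rose by 1.83 (standard error 0.16, adjusted p = 0.000348), MRTFA, a coactivator of SRF, by 0.89 (0.0126, lost without ATRX KO replicate 3 at 0.0524) and TGFB1I1 by 1.01 (0.0203, lost without any of 4 arrays). The actin gene ACTG1 fell by 0.89 (adjusted p = 0.00633), and SRF itself did not pass (-0.37).

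Of 9 measured TGF-beta target genes, 7 rose and none fell (5.79% and 3.72% over all genes tested), with a median of 1.04 against 0.074. SKIL and SMAD7, which encode feedback inhibitors of the pathway, rose by 1.86 (standard error 0.20, adjusted p = 0.000814 from limma) and 1.13 (standard error 0.15, adjusted p = 0.00247). With the mean over its clusters SMAD7 was at 0.63 and did not pass (adjusted p = 0.0688). TGFBI, a matrix protein gene, rose by 1.42 and BHLHE40, a transcription factor gene, by 1.04. Fibroblast markers rose between the same arrays, and their part in these counts was not tested.

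The genes whose pattern over the 6 arrays lay nearest to that of WWTR1, with each gene centred on its mean and only brighter protein-coding genes compared, were GPR137B, BCL6 and PRRC2B, with root mean square differences of 0.053, 0.060 and 0.086 on the log2 scale. They fell by 1.13, 1.15 and 1.15. Nearest to CCN1 were IFIT5, PHYKPL and WDR82, at differences of 0.035, 0.036 and 0.039, with log2 fold changes of 0.36, 0.45 and 0.40 that did not pass.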
